A study of Homo sapiens with 5 samples.

Results

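Peaks of chromatin immunoprecipitation (ChIP) with an antibody against FOXM1 were set beside peaks of ChIP with an antibody against LC3, both from A549, a long-established human cell line grown from a lung adenocarcinoma. All peaks of both lists were taken, and peaks that repeated the same interval were merged. This left 11195 FOXM1 peaks and 7801 LC3 peaks, together 18996 of the 63391 peaks in the 4 lists of the series. FOXM1 is a forkhead transcription factor that drives genes of the G2 and M phases of the cell cycle, in part through the MuvB complex, which reads the cell cycle homology region of promoters. LC3 proteins belong to the ATG8 family of small ubiquitin-like proteins, which are joined to lipid on autophagosome membranes and bind cargo receptors. LC3 is also found in the nucleus, where binding to the lamina protein lamin B1 is known, and it is not known as a sequence-specific DNA-binding protein.

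The title of the series names FOXM1 as specifying which chromatin DNA goes to extracellular vesicles, and its other lists are of vesicle DNA, which are not used here. For both immunoprecipitations the cells were untreated, grew in medium with 10% fetal bovine serum and were fixed in 1% formaldehyde before sonication. The FOXM1 and LC3 antibodies came from the same supplier, and each list came from 1 library, so no difference could be set against a spread between replicates. An input library was labelled for the same cells and was not analysed here, and the sources used here do not say against which control the peaks were called, so the part of the input in either list was not tested.

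Both lists were made mostly of weak peaks. The median fold over local background, a value given by the authors for each peak, was 2.89 for FOXM1 and 3.02 for LC3. The median number of fragments at a summit was 5 for FOXM1 and 8 for LC3, over a median background of 1.08 fragments for FOXM1 and 1.955 for LC3. Only 221 FOXM1 peaks and 295 LC3 peaks had a q-value of at most 0.05. The FOXM1 list had a longer tail of strong peaks, with 17 peaks of fold 10 or more up to 182, against 1 such peak, of fold 10.0, in the LC3 list. Read totals are unknown. The 1% quantile of background was divided by the smallest peak width, taken in place of the unknown fragment length. This value was 0.629 times as high in the FOXM1 list as in the LC3 list, so the FOXM1 library may have been the shallower one.

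Promoters give the clearest view of how the lists differ, and 6 of them are printed here because they belong to genes with the strongest protein-coding promoter peaks of either list or were covered by peaks of both. Each sequence runs from 250 bases before to 50 bases after a RefSeq transcription start site (TSS) on GRCh38.p14, 5′ to 3′ on the gene's strand, with CG dinucleotides in capitals. VIM encodes the intermediate filament protein vimentin (chr10:17227991-17228290, plus strand), and its window was covered over all 300 bases by a FOXM1 peak of fold 62.0 and by an LC3 peak of fold 6.49. PGK1 encodes a glycolytic kinase (chrX:78103998-78104297, plus strand), and its window was covered over 300 bases by a FOXM1 peak of fold 22.6 and over 115 bases by an LC3 peak of fold 3.03. SPRR2B encodes a protein of the cornified envelope (chr1:153071562-153071861, minus strand), with 122 bases under a FOXM1 peak of fold 3.49 and 197 under an LC3 peak of fold 2.39. SPRR2B has close paralogs, so reads there may be shared. The LC3 peak at PGK1 and both peaks at SPRR2B had q-values above 0.05.
VIM: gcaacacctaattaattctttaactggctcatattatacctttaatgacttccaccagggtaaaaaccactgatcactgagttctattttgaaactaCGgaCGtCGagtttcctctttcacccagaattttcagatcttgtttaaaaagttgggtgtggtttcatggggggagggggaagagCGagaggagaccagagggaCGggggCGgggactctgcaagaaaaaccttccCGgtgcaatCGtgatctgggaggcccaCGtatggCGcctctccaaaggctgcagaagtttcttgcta
PGK1: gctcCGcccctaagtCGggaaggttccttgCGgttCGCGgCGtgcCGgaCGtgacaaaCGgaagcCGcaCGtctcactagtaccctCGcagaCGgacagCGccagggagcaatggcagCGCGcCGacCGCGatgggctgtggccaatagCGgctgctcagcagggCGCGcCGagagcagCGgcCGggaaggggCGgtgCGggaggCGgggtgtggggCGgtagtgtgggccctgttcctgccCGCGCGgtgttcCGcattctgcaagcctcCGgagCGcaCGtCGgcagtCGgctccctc
SPRR2B: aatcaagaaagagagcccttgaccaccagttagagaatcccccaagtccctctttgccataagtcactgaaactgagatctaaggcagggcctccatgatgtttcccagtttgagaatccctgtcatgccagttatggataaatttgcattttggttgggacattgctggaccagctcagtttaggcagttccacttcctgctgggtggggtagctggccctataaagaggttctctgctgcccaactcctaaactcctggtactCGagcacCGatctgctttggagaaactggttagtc

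CARM1 encodes an arginine methyltransferase that acts on histones (chr19:10871303-10871602, plus strand), and 76 bases of its window lay under a FOXM1 peak of fold 12.9 and none under an LC3 peak; the strongest FOXM1 promoter peak of the gene (fold 15.7) lay at another start, from 10920233 to 10921161. RAPGEF4 encodes a cAMP-regulated exchange factor (chr2:172735595-172735894, plus strand), and all 300 bases of its window lay under an LC3 peak of fold 5.46. UBN2 encodes a subunit of a histone chaperone complex (chr7:139230987-139231286, plus strand), and 111 bases of its window lay under an LC3 peak of fold 5.45. Neither of these windows touched a FOXM1 peak. The density of CG dinucleotides varied widely among the 6 windows, with 56 in CARM1, 39 in RAPGEF4, 38 in PGK1, 25 in UBN2, 10 in VIM and 2 in SPRR2B.
CARM1: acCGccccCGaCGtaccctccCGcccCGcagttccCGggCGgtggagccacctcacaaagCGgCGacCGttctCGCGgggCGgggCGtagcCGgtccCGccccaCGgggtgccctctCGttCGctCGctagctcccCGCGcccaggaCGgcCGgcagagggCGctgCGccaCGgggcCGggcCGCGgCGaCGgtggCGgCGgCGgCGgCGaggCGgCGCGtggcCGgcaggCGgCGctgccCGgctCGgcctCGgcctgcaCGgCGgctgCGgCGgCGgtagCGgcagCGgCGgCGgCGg
RAPGEF4: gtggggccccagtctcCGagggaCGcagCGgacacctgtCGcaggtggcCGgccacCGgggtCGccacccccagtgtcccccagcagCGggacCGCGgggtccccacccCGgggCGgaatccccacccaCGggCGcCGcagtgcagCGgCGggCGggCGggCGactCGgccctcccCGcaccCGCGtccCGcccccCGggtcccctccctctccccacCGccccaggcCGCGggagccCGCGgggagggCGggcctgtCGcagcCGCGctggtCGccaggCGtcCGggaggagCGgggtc
UBN2: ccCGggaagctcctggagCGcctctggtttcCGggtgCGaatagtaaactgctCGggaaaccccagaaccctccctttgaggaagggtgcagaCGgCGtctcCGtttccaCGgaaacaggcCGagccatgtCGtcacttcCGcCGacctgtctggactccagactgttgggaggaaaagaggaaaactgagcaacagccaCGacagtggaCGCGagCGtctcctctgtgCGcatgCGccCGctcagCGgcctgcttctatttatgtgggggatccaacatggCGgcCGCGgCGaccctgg

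FOXM1 peaks lay mainly in intergenic DNA and introns, whereas promoters up to 1 kb, introns and intergenic DNA took similar shares of the LC3 list. With all promoter classes up to 3 kb together, promoters were the largest part of the LC3 list, at 38.1%, against 13.4% of the FOXM1 list. By the authors' annotation, the promoter class up to 1 kb from a TSS held 683 FOXM1 peaks, 6.10% of their list (exact Clopper-Pearson 95% interval 5.66 to 6.56), and 2226 LC3 peaks, 28.5% (27.5 to 29.6). The difference was −22.4 percentage points (−23.5 to −21.3), and these intervals, like all others given here, cover counting error only. Farther out in the promoter classes the lists came closer: at 1 to 2 kb the shares were 3.92% for FOXM1 and 5.58% for LC3, and at 2 to 3 kb they were 3.34% for FOXM1 and 4.01% for LC3. Distal intergenic peaks made up 43.1% of the FOXM1 list and 29.3% of the LC3 list, a difference of 13.8 points (12.5 to 15.2). Among peaks with a q-value of at most 0.05 the intergenic difference was larger, with 59.3% of FOXM1 peaks and 35.3% of LC3 peaks.

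**Figure D1:**
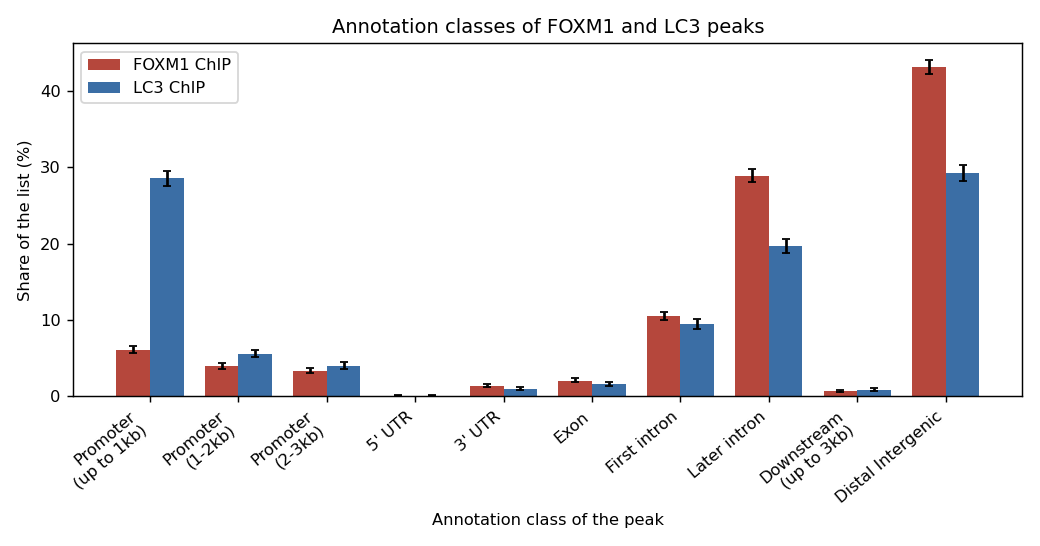
Share of each list (%) in 10 annotation classes given by the authors, for FOXM1 ChIP (red) and LC3 ChIP (blue), with exact 95% intervals for counting error. The promoter class up to 1 kb takes 6.10% of the FOXM1 list and 28.5% of the LC3 list, and distal intergenic DNA takes 43.1% of the FOXM1 list and 29.3% of the LC3 list.

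Within genes the gap lay in introns behind the first one. All introns together took 39.3% of the FOXM1 list and 29.1% of the LC3 list, a difference of 10.3 points, which among peaks with a q-value of at most 0.05 was 3.41 points with an interval that holds 0 (−2.28 to 9.09). First introns took 10.5% of the FOXM1 list and 9.41% of the LC3 list, a difference of 1.08 points (0.216 to 1.94), and later introns took 28.9% of the FOXM1 list and 19.7% of the LC3 list, a difference of 9.18 points (7.97 to 10.4). Among intron peaks alone, 26.7% of FOXM1 peaks (25.4 to 28.0) and 32.3% of LC3 peaks (30.4 to 34.3) were in a first intron. Classes of mature transcripts were small in both lists: exons took 2.06% of the FOXM1 list and 1.59% of the LC3 list, 3' UTRs held 152 FOXM1 peaks and 78 LC3 peaks, and 5' UTRs held 10 FOXM1 peaks and 5 LC3 peaks. The stretch of up to 3 kb behind a gene took 0.706% of the FOXM1 list and 0.885% of the LC3 list, a difference whose interval (−0.438 to 0.0804 points) holds 0.

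The promoter gap was seen among weak and strong peaks alike. With −log10 p under 3, the promoter class held 5.77% of the FOXM1 peaks and 23.5% of the LC3 peaks. With −log10 p of 5 or more, the shares were 10.7% of the FOXM1 peaks and 39.3% of the LC3 peaks. Since the depth of the libraries may differ, peaks were also set side by side at the same number of fragments at the summit. At 6 fragments the promoter share was 5.40% of 3054 FOXM1 peaks and 16.8% of 1072 LC3 peaks. At 8 fragments it was 9.50% of 505 FOXM1 peaks (7.09 to 12.4) and 24.0% of 1875 LC3 peaks (22.1 to 26.0). At 11 fragments it was 19.2% of 26 FOXM1 peaks (6.55 to 39.4) and 50.7% of 452 LC3 peaks (45.95 to 55.4). The LC3 share was thus higher at each step from 6 to 12 fragments, and it climbed with the number of fragments. The FOXM1 share also rose from 6 to 8 fragments (7.87% at 7 fragments), while above 9 fragments the FOXM1 list held too few peaks to tell a trend. Equal fragments were not equal fold, since the median background was 1.08 fragments for FOXM1 and 1.955 for LC3. The same order held on each of the 23 chromosomes compared (1 to 22 and X), with FOXM1 shares of 3.6% (chromosome 20) to 15.7% (chromosome 19) and LC3 shares of 18.7% (chromosome 20) to 47.7% (chromosome 6).

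**Figure D2:**
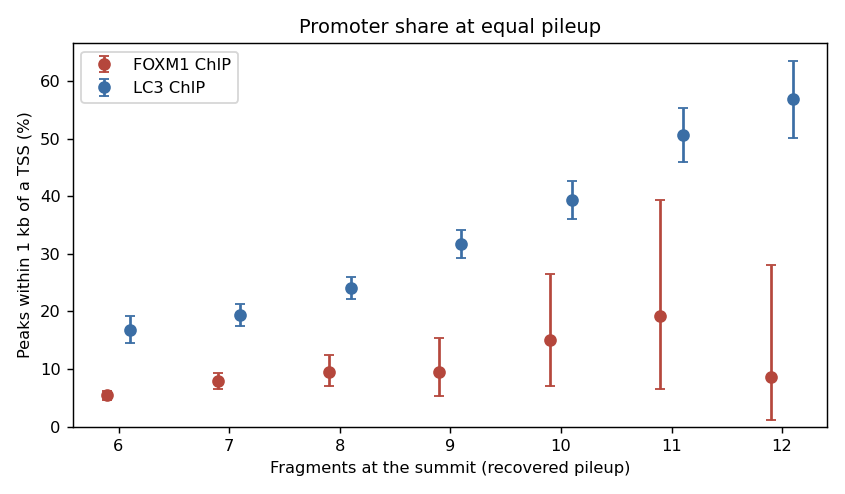
Share of peaks within 1 kb of a TSS (%) by the number of fragments at the summit, for FOXM1 ChIP (red) and LC3 ChIP (blue); bars are exact 95% intervals for counting error. At 6 fragments the shares are 5.40% for FOXM1 and 16.8% for LC3, and at 11 fragments they are 19.2% for FOXM1 and 50.7% for LC3.

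The authors' annotation counts the start of any annotated transcript, and the genes behind the promoter peaks were of different kinds in the lists. Of the promoter peaks, 48.2% in the FOXM1 list (329 peaks) and 77.7% in the LC3 list (1729 peaks) carried the name of a protein-coding gene. Names that matched no gene in the RefSeq table, mostly clone-based names, stood at 27.7% of the FOXM1 promoter peaks and 12.4% of the LC3 promoter peaks. Summits were therefore also placed around the TSSs of protein-coding genes in the RefSeq promoter table. This was done over the chromosomes that the table covers, which leave out chromosome 8 (10376 FOXM1 peaks and 7216 LC3 peaks). Within 1 kb of such a TSS lay 69 FOXM1 summits, 0.665% of the peaks, and 1144 LC3 summits, 15.9%.

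The shape of the distribution around the TSS differed as well. LC3 summits were concentrated just inside genes, and FOXM1 summits were spread thinly over the whole window. In 200 bp bins, the fullest bin of either list was the one from 200 to 400 bp downstream of the TSS, with 12 FOXM1 summits and 226 LC3 summits. The 10 bins lying 2 to 3 kb away on either side held 6.5 FOXM1 summits and 13.2 LC3 summits on average, so the fullest bin held 1.85 times that number for FOXM1 and 17.1 times for LC3. Among summits within 1 kb, 50.7% of the 69 FOXM1 summits (38.4 to 62.98) and 74.1% of the 1144 LC3 summits (71.5 to 76.6) lay downstream. The median position of the summits within 1 kb was +55 bp for FOXM1 (−268 to 225) and +330 bp for LC3 (303 to 360). With 183 FOXM1 summits in the whole window of 3 kb on each side, against 1576 LC3 summits, a narrow rise at the TSS in the FOXM1 list would be detectable only if large.

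**Figure D3:**
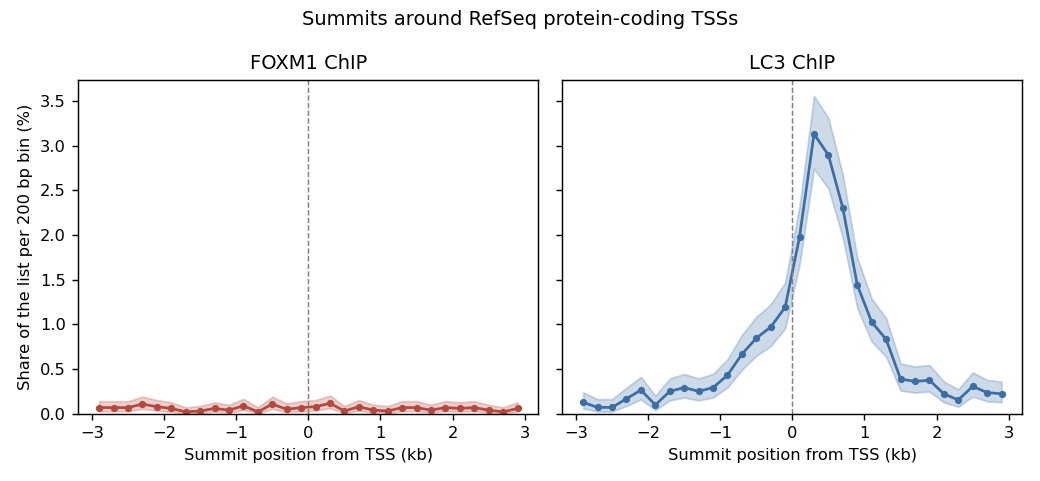
Share of the list (%) with a summit in each 200 bp bin around the TSSs of RefSeq protein-coding genes, by position from the TSS in kb (positive is downstream), for FOXM1 ChIP (left) and LC3 ChIP (right) on one scale; shading is the exact 95% interval. The bin from 200 to 400 bp downstream holds 0.116% of FOXM1 peaks and 3.13% of LC3 peaks. Chromosome 8 is left out.

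Distances to the nearest TSS in the authors' annotation followed the class mix. The median absolute distance was 23262 bp for FOXM1 (22442 to 24149) and 7523 bp for LC3 (7008 to 8108), and among peaks with a q-value of at most 0.05 it was 56029 bp for FOXM1 and 2360 bp for LC3. Peaks that touched a TSS, at a distance of 0, were 155 in the FOXM1 list (1.38%) and 789 in the LC3 list (10.1%). The lists also differed away from promoters. Intergenic peaks lay at a median of 46385 bp in the FOXM1 list and 30880.5 bp in the LC3 list, and intron peaks at a median of 21851 bp in the FOXM1 list and 17477 bp in the LC3 list. Beyond 500 kb from any TSS lay 126 FOXM1 peaks (1.13%) and 47 LC3 peaks (0.602%), and the farthest upstream peak was at −3601727 bp in the FOXM1 list and at −1576364 bp in the LC3 list.

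The lists differed in the side of the TSS near it and not measurably beyond 1 kb. Of the peaks not at a TSS, the upstream share was 47.6% in the FOXM1 list (46.6 to 48.5) and 44.3% in the LC3 list (43.2 to 45.5). Within 1 kb, 234 of 528 FOXM1 peaks (44.3%, 40.03 to 48.7) and 452 of 1437 LC3 peaks (31.5%, 29.1 to 33.9) lay upstream. Beyond 1 kb the upstream share was 47.7% in the FOXM1 list (46.8 to 48.7) and 47.7% in the LC3 list (46.3 to 48.98). The bias of LC3 peaks to the transcribed side was thus measured within 1 kb of the TSS, where 985 LC3 peaks lay downstream, against 294 FOXM1 peaks.

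FOXM1 peaks were slightly narrower, with a median width of 321 bp (319 to 324), against 346 bp for LC3 (344 to 349). Many peaks had the smallest width that occurred in their list, which was 318 bp for FOXM1 (5493 peaks, 49.1%) and 304 bp for LC3 (2571 peaks, 33.0%). These minima differ between the libraries, so small differences in width cannot be told apart from the settings of the peak calling. Among peaks with a q-value of at most 0.05 the order turned, with a median of 415 bp for FOXM1 and 382 bp for LC3. The wide peaks differed in place. Of the peaks of 500 bp or more, 8.004% of the 1112 in the FOXM1 list and 51.5% of the 1011 in the LC3 list lay within 1 kb of a TSS. At 1000 bp or more these were 6 of 16 FOXM1 peaks and 25 of 29 LC3 peaks.

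The widest FOXM1 interval was 16438 bp on the mitochondrial genome, named for MT-ND6, with a fold of 2.01 over a background of 284 fragments. The LC3 list held 0 mitochondrial peaks, but both lists skip some peak numbers next to the mitochondrial genome or chromosome X, so no difference can be drawn from this. The next widest FOXM1 peaks were at CDK1, which encodes the kinase that drives entry into mitosis (2025 bp, fold 5.97), and at VIM (1867 bp, fold 62.0). The widest LC3 peaks were at AC092651.2 (1988 bp, fold 4.40), VIM (1568 bp, fold 6.49) and LINC01962 (1406 bp, fold 2.91).

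The lists were also spread differently over chromosomes. Over chromosomes 1 to 22 and X there were 3.69 FOXM1 peaks per Mb and 2.56 LC3 peaks per Mb. FOXM1 density ranged 5.31-fold, with 5.96 peaks per Mb on chromosome 5 and 1.12 on chromosome 22. LC3 density ranged 18.7-fold, with 5.74 peaks per Mb on chromosome 20 and 0.306 on chromosome 13. FOXM1 peaks took a larger share of their list on 13 chromosomes and a smaller one on 10, and the 95% interval of the difference left out 0 on 18 of the 23.

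Chromosome 13 stood at one end, with 187 FOXM1 peaks (1.67% of those on the 23 chromosomes) and 35 LC3 peaks (0.451%), a ratio of shares of 3.71. The ratio was also above 2 on chromosomes X (2.45), 21 (2.38) and 4 (2.32). Chromosome 17 stood at the other end, with 176 FOXM1 peaks (1.58%) and 327 LC3 peaks (4.21%), a ratio of 0.374, followed by chromosomes 15 (0.461), 20 (0.471) and 19 (0.514). Among peaks with a q-value of at most 0.05 the difference in share was 0.126 points on chromosome 13 (−1.02 to 1.28), against 1.22 points over all peaks, and −1.09 points on chromosome 17 (−4.67 to 2.50), against −2.64 points, so neither left out 0 there. Although the LC3 list was shorter, LC3 peaks outnumbered FOXM1 peaks on 6 chromosomes, 15, 16, 17, 19, 20 and 22.

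Chromosomes with more protein-coding genes per Mb had lower ratios of the FOXM1 to the LC3 share (Spearman's rho −0.70 and Pearson's r −0.50 over 23 chromosomes). Each list alone followed gene density less closely, with a rho between peaks and genes per Mb of −0.14 for FOXM1 and 0.35 for LC3. The rho of the ratio was −0.70 also without the promoter class up to 1 kb, so it was not confined to those peaks. Between the lists, peaks per Mb went together with a rho of 0.64. These are descriptions over chromosomes, all of which come from the same pair of libraries and the same cell line.

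**Figure D4:**
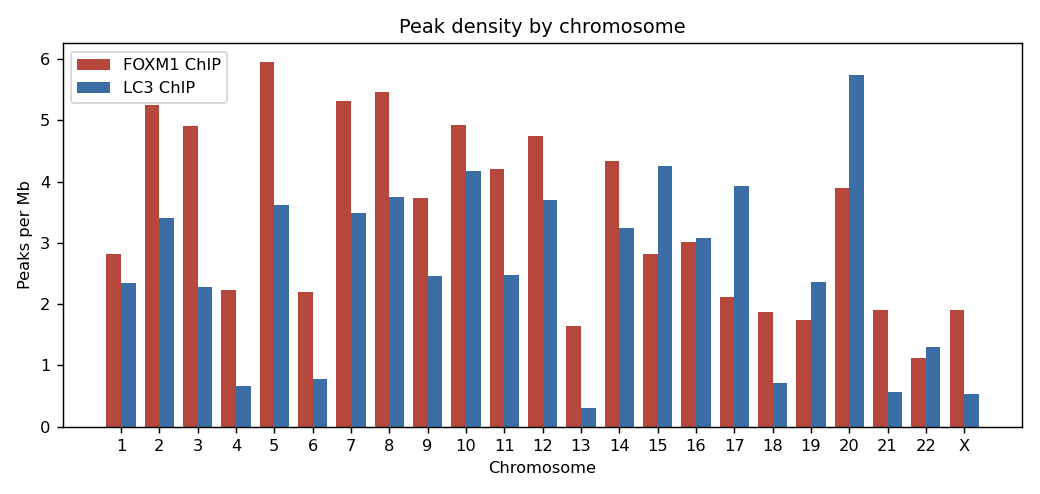
Peaks per Mb on each chromosome for FOXM1 ChIP (red, left bar) and LC3 ChIP (blue, right bar). FOXM1 density is highest on chromosome 5 (5.96 per Mb), LC3 density on chromosome 20 (5.74 per Mb), and chromosome 13 holds 1.64 FOXM1 peaks and 0.306 LC3 peaks per Mb.

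Each peak carries the name of the gene with the nearest TSS, and the lists named partly the same genes at different places. The FOXM1 list held 7018 gene names and the LC3 list 5899, of which 1862 stood in both, 26.5% of the FOXM1 names and 31.6% of the LC3 names. Among 20050 protein-coding genes, 2350 were named in the FOXM1 list (11.7%), 2954 in the LC3 list (14.7%) and 850 in both (4.24%). The 850 were 36.2% of the FOXM1 genes and 28.8% of the LC3 genes. At only 32 of them, 3.76%, did a FOXM1 peak and an LC3 peak named for the gene overlap. For 311 of the 850 the LC3 list had a peak within 1 kb of a TSS and the FOXM1 list a peak elsewhere, and for 68 it was the FOXM1 list that had the promoter peak and the LC3 list a peak elsewhere. A further 417 had a promoter peak in neither list, and 54 had one in both. Promoter peaks alone named 310 genes in the FOXM1 list (1.55% of protein-coding genes) and 1583 in the LC3 list (7.9%), with 54 in both (0.269%), which is 17.4% of the FOXM1 promoter genes and 3.41% of the LC3 promoter genes.

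Long genes were named most often in both lists, and more so in the FOXM1 list. The median length was 106 kb for genes in the FOXM1 list, 64.8 kb for those in the LC3 list, 166 kb for those in both and 24.1 kb over all protein-coding genes. Genes in the FOXM1 list alone had a median length of 78.7 kb, and genes in the LC3 list alone 44.2 kb. Of genes under 10 kb, 3.94% were named in the FOXM1 list (3.45 to 4.48) and 6.80% in the LC3 list (6.16 to 7.48). Of the 315 genes of 500 kb and over, 71.1% were named in the FOXM1 list (65.8 to 76.1) and 55.6% in the LC3 list (49.9 to 61.1). The order of the lists thus crossed with length, at about 200 kb. For promoter peaks it did not cross: among genes of 500 kb and over, 9.21% had a FOXM1 promoter peak (6.25 to 12.95) and 23.5% an LC3 promoter peak (18.9 to 28.6).

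**Figure D5:**
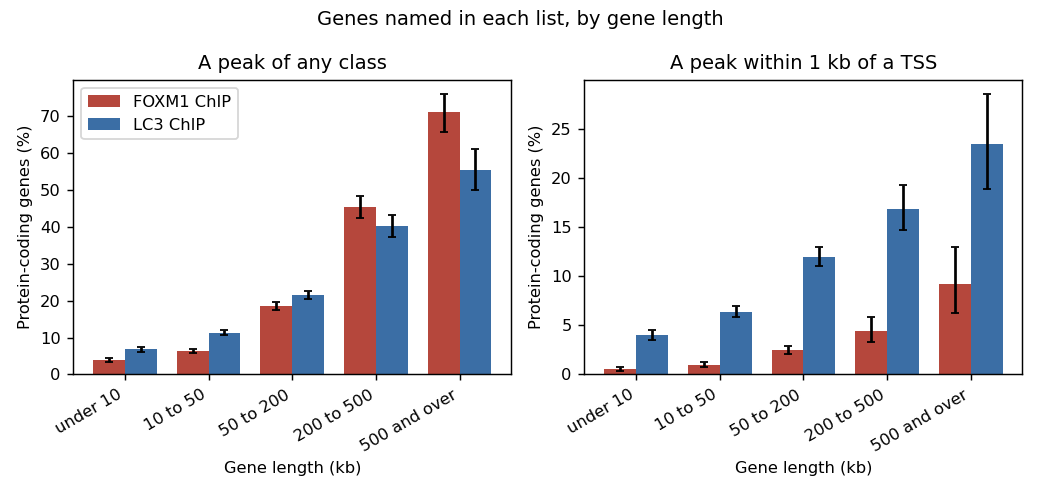
Share of protein-coding genes (%) named in each list by gene length in kb, at a peak of any class (left) and at a peak within 1 kb of a TSS (right), for FOXM1 ChIP (red) and LC3 ChIP (blue) with exact 95% intervals. At any peak, genes of 500 kb and over were named at 71.1% in the FOXM1 list and 55.6% in the LC3 list, while genes under 10 kb were named at 3.94% in the FOXM1 list and 6.80% in the LC3 list.

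Some of the genes with the most FOXM1 peaks had far fewer LC3 peaks. PTPRD, a receptor phosphatase gene, had 15 FOXM1 peaks and 2 LC3 peaks, and CNTN4, which encodes an axonal adhesion protein, had 13 FOXM1 peaks and 4 LC3 peaks. CSMD1 had 13 FOXM1 peaks and 2 LC3 peaks, and CDH18, a cadherin gene, had 12 FOXM1 peaks and no LC3 peak. Their strongest FOXM1 peaks had folds of 3.85 to 4.60, so these counts rest on many weak peaks.

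The LC3 list was led by ANO2, which encodes a calcium-activated chloride channel, with 1 FOXM1 peak and 11 LC3 peaks. NPAS3, which encodes a neuronal transcription factor, had 10 FOXM1 peaks and 10 LC3 peaks, more in both than any other gene. RYR3, a calcium release channel gene, had 6 FOXM1 peaks and 10 LC3 peaks, and ALK, a receptor tyrosine kinase gene, had 4 FOXM1 peaks and 10 LC3 peaks. DLGAP2, which encodes a postsynaptic scaffold protein, had 4 FOXM1 peaks and 9 LC3 peaks. Among the genes next most often named in both, TMTC1 had 7 FOXM1 peaks and 7 LC3 peaks, CTNND2 had 12 FOXM1 peaks and 6 LC3 peaks, and RBMS3 had 9 FOXM1 peaks and 6 LC3 peaks. Names follow the gene models of the authors' annotation, and part of these peaks lay outside the span that RefSeq gives the gene: within the RefSeq span of TMTC1 were 1 FOXM1 peak and 6 LC3 peaks, and within that of RBMS3 were 5 FOXM1 peaks and 1 LC3 peak. Of 14 long genes at common fragile sites, with a median length of 1601 kb, 13 were named in the FOXM1 list at 78 peaks and 8 in the LC3 list at 18 peaks, which stands beside 71.1% for FOXM1 and 55.6% for LC3 over all genes of 500 kb and over.

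The gap in fold between the strongest FOXM1 and LC3 peaks of protein-coding genes varied by class. At 1 to 2 kb from a TSS these were a FOXM1 peak of fold 182, named for ITFG2 and lying within the FOXM1 gene, and an LC3 peak of fold 5.01 at TMED3, a gene of vesicle traffic. In later introns they were a FOXM1 peak of fold 24.5 in TBC1D5, which encodes a Rab regulator of endosomes and autophagy, and an LC3 peak of fold 5.31 in DNAH5, a dynein gene of cilia. In first introns they were a FOXM1 peak of fold 4.48 in STK33 and an LC3 peak of fold 4.57 in DLGAP2. Within 1 kb of a TSS of the authors' annotation the strongest FOXM1 peaks were at FOXM1, VIM, PGK1, TULP3 and CARM1 (folds of 15.7 to 116). Of these, the peak at FOXM1 lay at a start inside the RefSeq span of the gene, and the peak at CARM1 at another start than the one printed above. The strongest LC3 peaks were at VIM, the SUMO ligase gene PIAS1, UBN2, RAPGEF4 and TESC (folds of 5.31 to 6.49).

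Of 35 FOXM1 and G2/M genes, 3 were named in the FOXM1 list and 3 in the LC3 list, 8.57% in each, beside 11.7% of all protein-coding genes for FOXM1 and 14.7% for LC3. For a list of this length these shares are near those over all genes, and nothing is read from them. By the authors' annotation, FOXM1 itself had 3 FOXM1 promoter peaks and 1 LC3 promoter peak, all at starts inside the RefSeq span of the gene. CDK1 had a FOXM1 promoter peak of fold 5.97 and an LC3 peak of fold 2.84 outside the promoter. PLK1, a mitotic kinase gene, had a promoter peak in the FOXM1 list (648 bp, fold 6.87), and CENPF, which encodes a kinetochore protein, was named in the LC3 list. None of the 10 genes of the MuvB and B-MYB complex was named in either list. By coordinates, the FOXM1 gene (chromosome 12, 2857680 to 2877174) held 7 FOXM1 peaks and 2 LC3 peaks. The strongest peak named for FOXM1 lay from 2873789 to 2874682 and the LC3 peak named for it from 2873983 to 2874363. The FOXM1 peak that covered the end of the span at 2877174 was named for TULP3 (2876849 to 2878290, fold 16.4). Of 22 other forkhead genes, 4 were named in the FOXM1 list (18.2%: FOXN2, FOXN3, FOXP2 and FOXQ1) and 3 in the LC3 list (13.6%: FOXC1, FOXP1 and FOXP2). Over all protein-coding genes the shares were 11.7% for FOXM1 and 14.7% for LC3. The exact intervals of the forkhead and MuvB shares hold these values, so nothing is read from their counts.

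None of the 7 genes of the ATG8 family was named in either list, beside 11.7% of all protein-coding genes for FOXM1 and 14.7% for LC3. For so short a list nothing is read from this. Peaks did lie within members by coordinates. MAP1LC3B2 (chromosome 12, 116559381 to 116576606) held 1 FOXM1 peak of fold 74.3 and 1 LC3 peak of fold 10.0, the strongest of the LC3 list, which overlapped and which the authors' annotation names AC125603.4. MAP1LC3B (chromosome 16, 87392336 to 87404774) held 1 FOXM1 peak and no LC3 peak. Of 28 autophagy genes, 6 were named in the FOXM1 list (RB1CC1, UVRAG, ATG2B, ATG4B, ATG16L1 and TAX1BP1), none of them at a promoter, and 2 in the LC3 list. These are 21.4% of the genes for FOXM1 and 7.14% for LC3, beside 11.7% of all protein-coding genes for FOXM1 and 14.7% for LC3; the autophagy genes had a median length of 44.7 kb, against 24.1 kb over all. The LC3 list named RB1CC1, which encodes a scaffold of the autophagy initiation complex, at a promoter peak of fold 3.52, and ATG10. Of 19 lysosome genes, none was named in the FOXM1 list and 2 in the LC3 list (10.5%, beside 14.7% over all), both at promoters, where the share over all genes was 7.9%: CTSB, which encodes the protease cathepsin B (fold 3.37), and GAA, which encodes the lysosomal alpha-glucosidase (fold 2.39). Of 16 genes of the nuclear lamina and envelope, 3 were named in the FOXM1 list (SYNE1, SYNE2 and TPR) and 2 in the LC3 list (LEMD2 and TMPO), with no gene in both. These are 18.8% for FOXM1 and 12.5% for LC3, beside 11.7% for FOXM1, 14.7% for LC3 and 4.24% for both over all protein-coding genes. For so short a list nothing is read from these counts or from the lack of a shared gene.

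Among 20 housekeeping genes, 2 were named in the FOXM1 list (beside 11.7% over all protein-coding genes) and 6 in the LC3 list (beside 14.7%). At promoters these were 2 for FOXM1, beside 1.55% over all, and 5 for LC3, beside 7.9%. The FOXM1 promoter peaks were at PGK1 (fold 22.6) and EEF1A1, a translation elongation factor gene (fold 8.58). Among the LC3 promoter peaks were those at GAPDH (fold 3.13), PGK1 (3.03), SDHA and RPL13A. Of 18 lung epithelial genes, 1 was named in the FOXM1 list, CDH1, which encodes E-cadherin (fold 13.99), and 1 in the LC3 list, EPCAM, an epithelial adhesion gene (fold 3.21), 5.56% in each list. A further list held 23 lineage genes of blood and neurons, which A549 cells should mostly not express. Of these, 4 were named in the FOXM1 list (17.4%) and 6 in the LC3 list (26.1%). The LC3 promoter peaks among these were at CD8A (fold 3.05), NEFL (4.39) and STMN2 (3.95), and the single FOXM1 promoter peak was at MS4A1 (2.89). The exact intervals of the lung epithelial and lineage shares hold those over all protein-coding genes, 11.7% for FOXM1 and 14.7% for LC3. Nothing is read from the counts of these 2 gene lists.

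Genes with an LC3 promoter peak had starts richer in CG dinucleotides, while for genes with a FOXM1 promoter peak the intervals held the value over all windows. For each gene in the RefSeq promoter table, which leaves out chromosome 8, the first listed 300-base window was read, whether or not the peak covered it. This gave 250 genes with a FOXM1 promoter peak and 1251 genes with an LC3 promoter peak, of 15843. A FOXM1 peak overlapped only 23 windows and an LC3 peak 315. The median GC content was 63.3% for FOXM1 (60.7 to 64.7), 67.0% for LC3 (66.3 to 68.0) and 62.7% over all windows. The median number of CG dinucleotides was 23 for FOXM1 (19 to 25), 28 for LC3 (27 to 29) and 22 over all. At least 15 CG dinucleotides were held by 64.8% of the FOXM1 windows (58.5 to 70.7), 81.4% of the LC3 windows (79.1 to 83.5) and 65.5% of all windows. In the overlapped windows alone these shares were 52.2% for FOXM1 (30.6 to 73.2) and 89.2% for LC3 (85.2 to 92.4).

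Read the other way, the share of genes with a promoter peak was level over CG content for FOXM1 and climbed for LC3. Since peaks overlapped few of the windows read, these shares describe the genes and not the DNA under the peaks. Of genes with 0 to 4 CG dinucleotides in the window, 1.75% had a FOXM1 promoter peak (1.28 to 2.33) and 3.95% an LC3 promoter peak (3.24 to 4.77). Of genes with 25 or more, 1.60% had a FOXM1 promoter peak (1.31 to 1.92) and 10.98% an LC3 promoter peak (10.2 to 11.7). The part of base composition in the number of reads from either library was not tested.

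Motif letters were counted in the same windows on both strands. TAAACA (reverse complement TGTTTA), a core that forkhead proteins bind, was in 10.8% of the FOXM1 windows (7.24 to 15.3), 6.71% of the LC3 windows (5.39 to 8.25) and 8.95% of all windows. The difference between the lists was 4.09 points, with an interval (−0.0044 to 8.18) that holds 0. An alternative chosen after seeing the data took the windows that a peak itself overlapped. There TAAACA was in 5 of 23 FOXM1 windows (21.7%, 7.46 to 43.7) and 10 of 315 LC3 windows (3.17%, 1.53 to 5.76). That FOXM1 interval holds the 8.95% over all windows and that LC3 interval lies below it. The FOXM1 windows were too few to give the size of the difference. TTTGAA, the cell cycle homology region, was in 12.8% of FOXM1 windows (8.92 to 17.6), 7.03% of LC3 windows (5.68 to 8.59) and 12.1% of all. CCAAT was in 34.0% of FOXM1 windows, 34.3% of LC3 windows and 36.4% of all. CACGTG, the palindromic E-box, was in 10.4% of FOXM1 windows, 8.31% of LC3 windows and 8.88% of all. For each of the 4 motifs the FOXM1 interval holds the value over all windows. The LC3 interval lies below that value for TAAACA and TTTGAA and holds it for CCAAT and CACGTG. Of the windows printed above, VIM held TAAACA and TTTGAA or their reverse complements, PGK1 held CCAAT or its reverse complement, and the other 4 held none of the 4 motifs.

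Over all peaks the lists rarely met, and among the stronger peaks they met more often. At least 1 bp was shared at 155 FOXM1 peaks (1.38% of the list, 1.18 to 1.62) and 157 LC3 peaks (2.01%, 1.71 to 2.35), in 157 pairs. Among peaks with a q-value of at most 0.05 in both lists, 16.7% of the FOXM1 peaks (12.1 to 22.3) overlapped an LC3 peak. Most of these stronger pairs were distal intergenic and named for pseudogenes or unmatched genes, with several pairs each at KSR1P1, SNX18P25 and RF01699. The protein-coding names among them were ITFG2, FOXM1, VIM and DUX4. How uniquely reads could be placed at these pairs was not tested. Where peaks met, they met closely: the median shared length was 304 bp, the median distance between summits was 92 bp, and 81 pairs had summits within 100 bp. The authors' class was the same in both lists for 155 pairs, and the FOXM1 peak had the higher fold in 101. The nearest LC3 peak lay at a median of 149 kb from a FOXM1 peak, and the nearest FOXM1 peak at a median of 90.7 kb from an LC3 peak.

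The overlapping peaks resembled each other more than their lists did. Intergenic DNA held 52.3% of the overlapping FOXM1 peaks (44.1 to 60.3) and 52.2% of the overlapping LC3 peaks (44.1 to 60.3), against 42.9% of the other FOXM1 peaks and 28.8% of the other LC3 peaks. Promoters up to 1 kb held 17.4% of the overlapping FOXM1 peaks (11.8 to 24.3) and 17.8% of the overlapping LC3 peaks (12.2 to 24.7), against 5.94% of the other FOXM1 peaks and 28.8% of the other LC3 peaks. Since pairs mostly share a class by position, the likeness of overlapping peaks follows from the overlap, and only the contrast with the other peaks of each list is informative. A background of 10 fragments or more was found at 10.3% of the overlapping FOXM1 peaks and 13.4% of the overlapping LC3 peaks, against 0.299% of the other FOXM1 peaks and 0.144% of the other LC3 peaks. Without such peaks the overlap was 1.20% of the FOXM1 list.

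At 12 protein-coding genes the overlapping pair lay within 1 kb of a TSS in both lists. Only at VIM and FOXM1 did both peaks of the pair have a q-value of at most 0.05. VIM, FOXM1 (at a start inside its RefSeq span, FOXM1 fold 116, LC3 fold 3.87) and PGK1 had FOXM1 peaks of fold 10 or more. The other 9 had FOXM1 folds of at most 4.33, among them LSAMP, a neuronal adhesion gene (FOXM1 fold 4.33, LC3 fold 3.41), DENND1B (3.37 and 3.03 in the same order), MEIS1, which encodes a homeobox factor (2.41 and 3.38), SV2C, a synaptic vesicle gene (2.64 and 4.27), and CNKSR2 (2.89 and 3.03). POTEG and TAF11L6 belong to families of near-identical copies, so their peaks are uncertain.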

How the data were processed

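Peak lists of FOXM1 ChIP and LC3 ChIP from A549 cells, 1 library each, were used. The submitters' processing notes name hg38, the peak caller MACS3 3.0.0a6, the aligner BWA, ChIPseeker for annotation, and FastQC 0.11.8 and fastp 0.20.0 for the reads; their parameters and the control library are not given in the sources used here. Per the labels, reads were single-end or paired-end, and which library had which is not given. Per the file headers, the deposited values of a peak are its fold over local background (a linear ratio), −log10 p-value, −log10 q-value and score, all by the authors. These are the authors' values for single peaks, used only to describe, rank or filter within a list; the score was not used. The numbering skips 81 peaks in the FOXM1 list and 33 in the LC3 list, so these lists lack some called peaks.

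Repeated intervals (34 in the FOXM1 list, 33 in the LC3 list) were merged to the strongest summit. Summit fragments and background were taken back from the fold and the Poisson p-value, for a whole pileup, and 100% of peaks in both lists matched within 0.01. Shares have exact Clopper-Pearson 95% intervals, differences normal ones and medians order-statistic ones, computed with Python 3.11.15, scipy 1.17.1 and pandas 2.3.3. The computation was tested on simulated data. With 1 library a side, no test between the immunoprecipitations was made. Gene names were matched to the RefSeq gene table (GRCh38.p14, a patch of the hg38 assembly), and 65.4% of the names in the FOXM1 list and 72.8% of those in the LC3 list matched.

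The members and gene lists were chosen with earlier results of these data known. Genes were named by rule: per list, the 5 protein-coding genes with the most peaks, the 5 with the strongest promoter peak, the strongest per class and the 3 widest peaks; the 5 genes most often named in both; those with overlapping promoter peaks; up to 4 promoter members of each of 11 gene lists; and the FOXM1 and ATG8 family genes. Not all are described, and some are not reported here. Members of gene lists without a promoter peak, MAP1LC3B2 and the genes added from the spans were named after their values were seen.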

Additional observations from a re-analysis of the deposited data

How the results depend on the processing

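Values are FOXM1 minus LC3, and 58 of the 78 alternative values over 11 results stayed within the 95% interval of the reported value or, for gene names, within 1.5 times the count. Keeping only peaks with a q-value of at most 0.05 left 221 FOXM1 peaks and 295 LC3 peaks and moved each of the results it was applied to. The promoter difference became −27.8 points, the intergenic one 24.0, the intron one 3.41 (interval −2.28 to 9.09) and the upstream one 9.10 (−0.181 to 18.4), and the difference in median distance became 53669 bp. The difference in median width reversed to 33 bp, against −25 bp over all peaks. Chromosome 13 then differed by 0.126 points and chromosome 17 by −1.09 points, both with intervals that hold 0. Only 32 gene names were then in both lists, against 1862, while the share of FOXM1 peaks that met an LC3 peak was 16.7%, against 1.38%. Keeping −log10 p of at least 3 gave a promoter difference of −23.9 points and a width difference of −19 bp. With equal list lengths the width difference was −18 bp and the overlap 1.67% of FOXM1 peaks. Promoters up to 3 kb differed by −24.8 points, and summits within 1 kb of a RefSeq protein-coding TSS, an alternative chosen after seeing the data, by −15.2 points. With 850 protein-coding names, or 1064 names without distal intergenic peaks, fewer names were in both lists. An overlap of at least 50% of the shorter peak was met by 1.09% of FOXM1 peaks. In windows overlapped by a peak, also chosen after seeing the data, the difference in the forkhead core was 18.6 points, from 23 FOXM1 windows. Causes of these shifts were not tested. No paired analysis was possible because each immunoprecipitation had 1 library and no test was made. Read totals are unknown, both lists are shallow, and the intervals cover counting error only, so a difference between libraries cannot be told apart from a difference between antibodies.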
